A study of Mus musculus with 8 samples.

Results

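Zfp57, Zfp445, Trim28, Setdb1, Ctcf, Ctcfl, Ehmt1 and Ehmt2 encode factors that protect genomic imprints or place repressive methyl groups on lysine 9 of histone H3 (H3K9). These 8 genes were taken by name from the 31010 genes of the deposited table. All 8 were found, and all 8 were among the 12000 genes whose mean over the samples reached 1 FPKM (fragments per kilobase of exon, scaled by library size), the minimum for a test. RNA-seq had been carried out on germline stem (GS) cells, which are cultured spermatogonial stem cells grown with human FGF2 and rat GDNF. The study's methods state that the founding cells were sorted from mature testes with an antibody against CD9, a surface protein that spermatogonia share with other testis cells. Control-F1 lines 29, 37, 44 and 45 came from mice sired by natural mating, and ICSI-F1 lines 11, 17, 20 and 21 came from mice produced by intracytoplasmic sperm injection (ICSI). Every line was labelled as WT with B6 in its title, and neither group carried a transgene or an agent in its labels. The study's methods, however, name green mice, which carry an Egfp transgene, as the source of the sperm for ICSI. Its results call this sperm wild-type, and whether the ICSI-F1 lines carried the transgene was not stated. The age of the mice was not given in the labels. The labels do not say that each line came from a separate mouse, but the line numbers recur among the individually numbered F1 mice of the study. The p-values below measure the spread between lines, each with 1 library, and part of that spread may be technical.

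The sample titles differ in their punctuation. Titles with hyphens, referred to as label form 1, belong to control lines 29 and 37 together with ICSI lines 11 and 17. Titles written without hyphens, or label form 2, belong to control lines 44 and 45 together with ICSI lines 20 and 21. The submitters' processing notes list STAR 2.7.9a, cutadapt 3.4 and HTSeq 0.13.5 for the lines of form 1. For the lines of form 2 they list STAR 2.6.0c, cutadapt 1.16 and HTSeq 0.11.2. The study's methods, in contrast, give the versions listed for form 1 for all 8 libraries, so it is uncertain whether the columns of the table were made with different versions. If they were, tool version and label form cannot be told apart in any difference between forms. Between 24701939 and 44273903 reads were recovered per library, with 24701939 to 26655546 in form 1 and 32353457 to 44273903 in form 2. Germ cell markers were abundant in all lines, since Ddx4, a germ cell RNA helicase, ranged from 173 to 274 FPKM and Dazl, a germ cell RNA-binding protein, from 257 to 420 FPKM. Fibroblast markers were present too, and their summed level over 12 genes ranged from 176 to 793 FPKM. The study's methods mention that GS cultures were plated on gelatin before collection, a step that depletes embryonic fibroblasts. In such bulk RNA, fewer cells of a type and less RNA per cell cannot be told apart. Of 10 Sertoli and Leydig cell markers, Cyp17a1 was at 0 reads in every line, and Insl3, Amh, Cyp11a1, Hsd3b1, Cldn11 and Gata4 stayed below 1 FPKM in all lines, while Sox9, Wt1 and Star had means of 2.18, 2.08 and 1.24 FPKM.

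Imprinted genes carry control regions that are methylated on the copy from one parent only, and this methylation must outlast the demethylation that follows fertilization. ZFP57 and ZFP445 are zinc finger proteins with a KRAB domain that bind control regions and bring in the corepressor TRIM28, which in turn recruits SETDB1, the enzyme that trimethylates H3K9. CTCF binds the unmethylated copy at several control regions, including the one between Igf2 and H19, and acts there as an insulator. CTCFL (also called BORIS) is its paralog in male germ cells. EHMT2 (G9a) and EHMT1 (GLP) form the enzyme pair that mono- and dimethylates H3K9 in euchromatin. In male germ cells imprints are erased and then set again in the paternal pattern, and GS cells carry that pattern.

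The sequences before the start sites of 4 of the factors are shown first, because these genes give the contrasts described below. Zfp57, Zfp445 and Ehmt2 had all lines of form 2 below all lines of form 1, as had 10.8% of all genes tested, and Ctcf did not. Setdb1 and Ctcfl were separated in the same way and Trim28 and Ehmt1 were not, but these are not printed. The 4 sequences were thus chosen by the levels, and a link between their letters and the levels was not tested. They are the 250 bases upstream of the start site in RefSeq on GRCm38.p6, the assembly also known as mm10, written from 5′ to 3′ with each CG dinucleotide, the site of DNA methylation, in capitals.
Zfp57: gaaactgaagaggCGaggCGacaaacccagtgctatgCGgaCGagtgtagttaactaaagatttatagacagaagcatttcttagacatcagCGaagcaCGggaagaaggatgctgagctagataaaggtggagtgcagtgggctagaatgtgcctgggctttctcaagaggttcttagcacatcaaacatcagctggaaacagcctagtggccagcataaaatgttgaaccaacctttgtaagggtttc
Zfp445: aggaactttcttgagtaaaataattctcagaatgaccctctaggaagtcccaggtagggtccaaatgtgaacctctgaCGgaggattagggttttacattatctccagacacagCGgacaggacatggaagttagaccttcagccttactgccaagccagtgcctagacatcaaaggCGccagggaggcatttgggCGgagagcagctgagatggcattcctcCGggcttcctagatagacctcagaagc
Ehmt2: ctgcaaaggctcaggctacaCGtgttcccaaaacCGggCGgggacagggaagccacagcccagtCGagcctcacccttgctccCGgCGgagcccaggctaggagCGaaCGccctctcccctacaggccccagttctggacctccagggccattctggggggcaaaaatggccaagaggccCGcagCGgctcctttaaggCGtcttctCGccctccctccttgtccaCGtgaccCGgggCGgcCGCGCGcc
Ctcf: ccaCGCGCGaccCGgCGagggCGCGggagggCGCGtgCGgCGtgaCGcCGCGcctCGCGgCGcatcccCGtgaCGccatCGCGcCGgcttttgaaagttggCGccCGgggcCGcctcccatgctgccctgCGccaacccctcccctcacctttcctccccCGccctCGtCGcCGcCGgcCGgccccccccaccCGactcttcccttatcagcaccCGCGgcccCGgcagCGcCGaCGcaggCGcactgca
The windows lie at chr17:37000913-37001162 (plus strand) for Zfp57, chr9:122866007-122866256 (minus strand) for Zfp445, chr17:34898224-34898473 (plus strand) for Ehmt2 and chr8:105636288-105636537 (plus strand) for Ctcf. The Zfp57 window holds 6 CG and the Zfp445 window 5, close to the median of 6 over all 32851 windows of this length. Ehmt2 holds 18 in the window shown and 36 in its second window, and Ctcf holds 40, more than 98.69% of all windows. The windows of Trim28, Setdb1 and Ehmt1 hold 17, 13 and 26. A window was found for 7 of the 8 factors, and all 10 of their windows held 3 to 40 CG.

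ZFP57 recognises the letters TGCCGC when the CG within them is methylated. This hexamer, searched on both strands (GCGGCA on the other), was found in 8.676% of the 32851 windows. It was found in 6 of 28 windows (21.43%) of genes at control regions that ZFP57 or CTCF bind, which belonged to 5 of the 17 such genes with a window. Among them were Mest and Plagl1, imprinted genes that reached the minimum for a test, and their windows are printed with the hexamer in capitals.
Mest: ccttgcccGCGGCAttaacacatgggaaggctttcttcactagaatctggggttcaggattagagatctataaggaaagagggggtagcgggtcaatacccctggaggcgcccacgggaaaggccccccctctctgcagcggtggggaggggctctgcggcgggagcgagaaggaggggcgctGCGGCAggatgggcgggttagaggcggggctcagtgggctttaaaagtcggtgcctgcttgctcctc
Plagl1: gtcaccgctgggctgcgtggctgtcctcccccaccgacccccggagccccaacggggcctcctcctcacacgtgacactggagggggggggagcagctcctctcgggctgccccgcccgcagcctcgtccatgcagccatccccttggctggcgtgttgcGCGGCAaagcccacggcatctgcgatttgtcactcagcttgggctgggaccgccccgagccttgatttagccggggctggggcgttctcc
The Mest window shown is at chr6:30737800-30738049 (plus strand) and holds 2 hexamers, and the Plagl1 window is at chr10:13090582-13090831 (plus strand) and holds 1. An overlapping Mest window with the same hexamers was also counted, so the 6 windows are not all separate sequences. The hexamer holds a CG, and the windows behind the 2 percentages were not matched for CG content. Of the 10 windows of the factors themselves, 2 held the hexamer, that of Trim28 and the second one of Ehmt2. Such matches describe the letters only, since binding was not measured here.

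The levels of the 8 factors spanned a wide range and, apart from Ctcf and Ehmt1, kept one order. FPKM is scaled by the length of all annotated exons of a gene, which can exceed that of the transcripts expressed. Levels of different genes are therefore compared only approximately. Trim28 was highest with a mean of 140 ± 10.2 FPKM over the 8 lines (SD, n = 8), above 98.6% of the genes tested. Ehmt2 followed at 69.98 ± 11.7 FPKM, Setdb1 at 37.1 ± 5.30, Ctcf at 15.1 ± 3.16, Ehmt1 at 12.7 ± 1.47, Zfp445 at 9.16 ± 3.32, Zfp57 at 3.93 ± 1.08 and Ctcfl at 2.35 ± 1.06 FPKM (SD, n = 8 each). Trim28 and Ehmt2 were thus at several times the level of the zinc finger genes Zfp445 and Zfp57 on the FPKM scale. Each gene exceeded the next one in all 8 lines, except that Ctcf exceeded Ehmt1 in 6 of 8 lines. The exact two-sided sign-flip permutation test over the 8 lines gave p = 0.0078125, the smallest it can give, for 6 of the 7 neighbouring pairs, or 0.00911 after Benjamini-Hochberg adjustment over the 7. For Ctcf and Ehmt1 it gave 0.03125 with and without adjustment, and their mean ratio of FPKM was 1.17. When each line was left out in turn, 6 or 7 of the 7 pairs passed. The order was taken from these same values, so the test describes only how steadily it held across the lines.

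**Figure D1:**
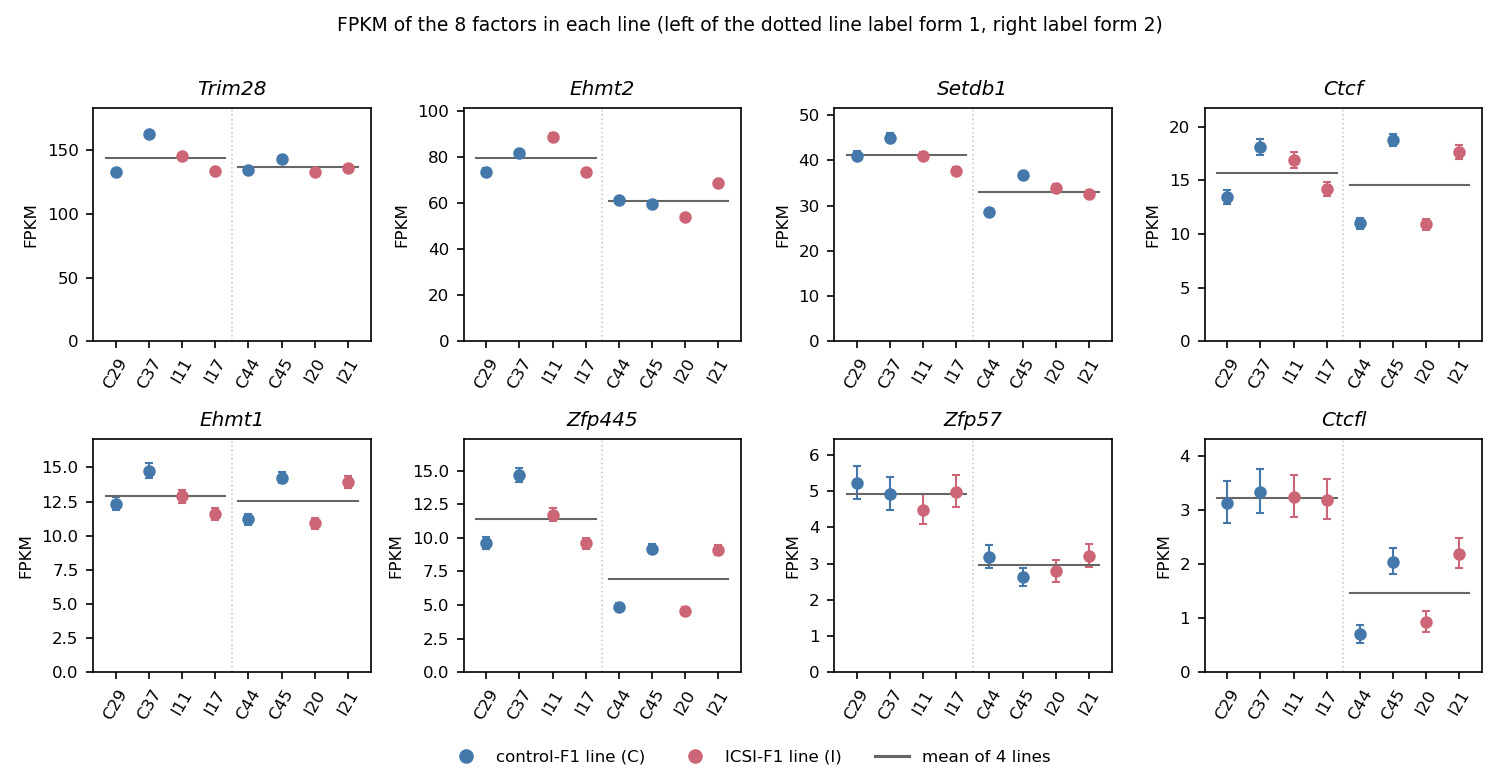
FPKM of each factor (vertical axis, linear and starting at 0) in the 8 lines (horizontal axis), with control-F1 lines in blue, ICSI-F1 lines in red, label form 1 left and label form 2 right of the dotted line. Points are single libraries, bars are 95% Poisson intervals of the reads behind them and horizontal lines are means of 4 lines; Zfp57 lies at 4.49 to 5.22 FPKM in form 1 and 2.63 to 3.21 FPKM in form 2, while blue and red points overlap in every panel.

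The lines were derived to ask whether the germline of mice produced by ICSI differs in its transcripts, and imprints and histone marks were examined in the same study. No difference between ICSI-F1 and control-F1 lines was detected for the 8 factors. limma on log2(FPKM + 1) called 0 of 8 at an adjusted p under 0.05, and 0 of 8 had an unadjusted p under 0.05. Over all 12000 genes, 0% passed after adjustment and 0.458% had an unadjusted p under 0.05. Label form was not a term in this fit, nor a block in the permutation tests below. Differences between forms are therefore part of the spread behind these p-values and intervals, and can hide a difference between groups. With label form as covariate, limma again called 0 of 8, with 0 under 0.05 before adjustment. limma-voom on the recovered reads also called 0 of 8, with 0 under 0.05 before adjustment. Of the 8 factors, 6 had a log2 difference below 0, as had 55.7% of all genes tested, and their median difference was -0.04 against -0.01 over all genes. The 4 ICSI and 4 control lines overlapped for 8 of 8 factors, whereas they did not overlap for 0.442% of all genes.

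ZFP57 is the zinc finger protein whose loss in embryos leads to loss of methylation at many control regions. Its gene (ENSMUSG00000036036) lies on chromosome 17 at 37001163 to 37010635, plus strand. Zfp57 was at 5.22, 4.92, 3.18 and 2.63 FPKM in control lines 29, 37, 44 and 45, and at 4.49, 4.98, 2.78 and 3.21 FPKM in ICSI lines 11, 17, 20 and 21, from 326 to 532 reads per line. The high and low lines were split by label form and not by group, and the groups overlapped. The mean level was 3.99 ± 1.28 FPKM over the control lines and 3.87 ± 1.04 FPKM over the ICSI lines (SD, n = 4 each), a log2 difference of -0.02 (SE 0.22, 95% interval -0.52 to 0.47, exact two-sided permutation p = 0.943). Within label form 1 the ICSI lines differed by -0.08 on the log2(FPKM + 1) scale, and within form 2 by 0.04.

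Zfp445, the gene of a zinc finger protein that acts with ZFP57 at control regions and is conserved in humans (ENSMUSG00000047036, chromosome 9, 122844529 to 122866006, minus strand), was at 9.63, 14.7, 4.85 and 9.18 FPKM in control lines 29, 37, 44 and 45. It was at 11.7, 9.58, 4.55 and 9.07 FPKM in ICSI lines 11, 17, 20 and 21. Control line 37 was highest, and control line 44 and ICSI line 20 were lowest, at similar levels. The groups overlapped, with means of 9.58 ± 4.01 FPKM (control) and 8.73 ± 3.02 FPKM (ICSI; SD, n = 4 each) and a log2 difference of -0.10 (95% interval -0.83 to 0.63, exact permutation p = 0.714). Between 1044 and 3001 reads lay behind each value.

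Trim28, the gene of the corepressor that KRAB zinc finger proteins recruit (ENSMUSG00000005566, chromosome 7, 12999114 to 13031035, plus strand), had the most even level. It was at 133, 162, 134 and 143 FPKM in control lines 29, 37, 44 and 45 and at 145, 134, 133 and 136 FPKM in ICSI lines 11, 17, 20 and 21. Control line 37 was the highest, and the coefficient of variation over the 8 lines was 7.25%, the lowest of the 8 factors. The log2 difference between groups was -0.06 (95% interval -0.29 to 0.17, exact permutation p = 0.6). In linear terms on the FPKM + 1 scale the interval ran from 0.816 to 1.13 times the control level.

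Setdb1, which encodes the enzyme for H3K9 trimethylation that TRIM28 brings to its targets (ENSMUSG00000015697, chromosome 3, 95323525 to 95357202, minus strand), was at 41.0, 44.98, 28.6 and 36.8 FPKM in control lines 29, 37, 44 and 45. In ICSI lines 11, 17, 20 and 21 it was at 41.0, 37.7, 33.9 and 32.5 FPKM. The lowest value was that of control line 44 and the highest that of control line 37, so the ICSI lines lay within the range of the control lines. The log2 difference was -0.05 (95% interval -0.38 to 0.28, exact permutation p = 0.771). Exons of Setdb1 share 249 bases with Gm37500 (3.63% of its exon length) and 75 bases with Cers2 (1.09%), both on the opposite strand, and reads there could not be assigned by strand with certainty.

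Ctcf (ENSMUSG00000005698, chromosome 8, 105636568 to 105682922, plus strand) was at 13.4, 18.1, 11.0 and 18.7 FPKM in control lines 29, 37, 44 and 45 and at 16.9, 14.2, 10.9 and 17.7 FPKM in ICSI lines 11, 17, 20 and 21. The 2 lowest lines were again control line 44 and ICSI line 20, and control line 45 and ICSI line 21, of the same label form, were among the 3 highest. The log2 difference between groups was -0.03 (95% interval -0.47 to 0.42, exact permutation p = 0.8). Ctcf exons overlap the opposite-strand genes Agrp over 114 bases and Gm5914 over 370 bases, which were at 0.0356 and 0.327 FPKM.

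Ctcfl (ENSMUSG00000070495, chromosome 2, 173093609 to 173119525, minus strand), the germ cell paralog of Ctcf, was at 3.13, 3.34, 0.702 and 2.05 FPKM in control lines 29, 37, 44 and 45. It was at 3.24, 3.19, 0.933 and 2.19 FPKM in ICSI lines 11, 17, 20 and 21. The 4 lines of label form 1 were almost equal, at 3.22 ± 0.0872 FPKM (SD, n = 4), and those of form 2 were spread out below them, at 1.47 ± 0.760 FPKM (SD, n = 4). Control line 44 had 74 Ctcfl reads (95% Poisson interval 0.552 to 0.882 FPKM) and ICSI line 20 had 93 (0.753 to 1.14 FPKM), against 243 to 291 in the other lines, and these intervals cover counting error only. The log2 difference between ICSI and control lines was 0.06 (95% interval -0.71 to 0.82, exact permutation p = 0.771), which is the widest interval of the 8 factors. A noncoding gene on the opposite strand, Ctcflos, shares 171 bases with Ctcfl exons (5.32%) and was at 0.327 FPKM.

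Ehmt1 (ENSMUSG00000036893, chromosome 2, 24789928 to 24919614, minus strand) was at 12.3, 14.8, 11.2 and 14.3 FPKM in control lines 29, 37, 44 and 45 and at 12.9, 11.6, 10.9 and 14.0 FPKM in ICSI lines 11, 17, 20 and 21. Ehmt2 (ENSMUSG00000013787, chromosome 17, 34898469 to 34914052, plus strand) was at 73.6, 81.6, 61.1 and 59.3 FPKM in the control lines and at 88.6, 73.4, 53.8 and 68.5 FPKM in the ICSI lines, in the same order. For Ehmt1 the 2 label forms overlapped, and for Ehmt2 the 4 lines of form 2 were the 4 lowest. The ICSI minus control difference was -0.08 for Ehmt1 (95% interval -0.36 to 0.20, exact permutation p = 0.486) and 0.03 for Ehmt2 (95% interval -0.34 to 0.41, exact permutation p = 0.857), both on the log2(FPKM + 1) scale.

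**Figure D2:**
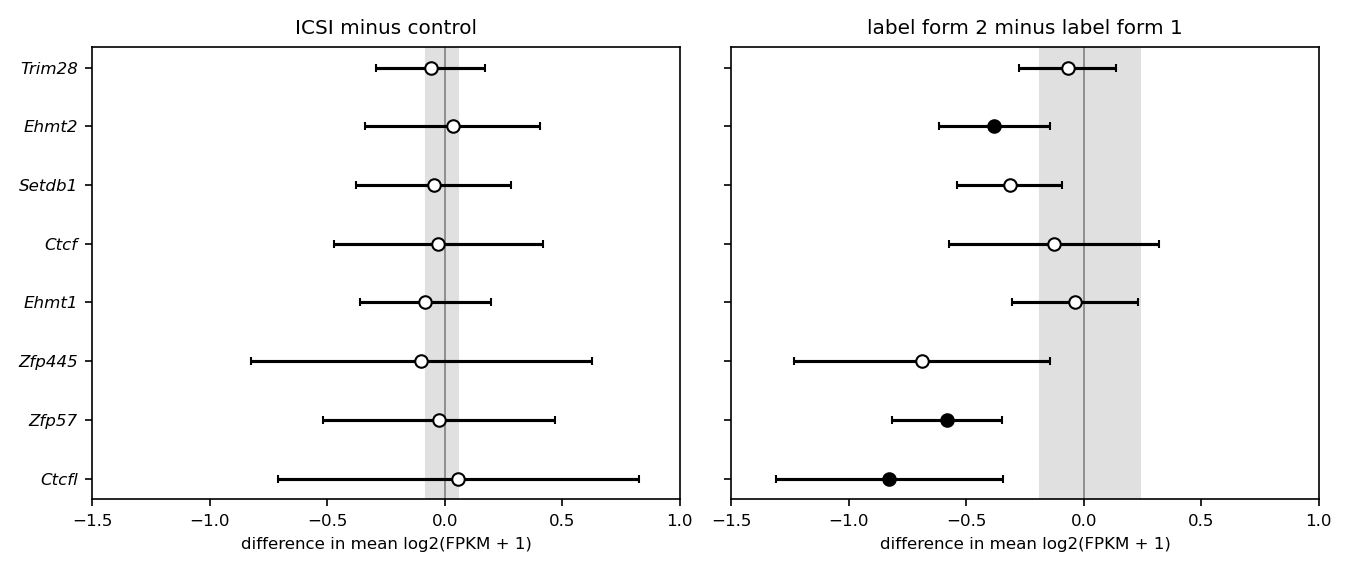
Difference in mean log2(FPKM + 1) for each factor (horizontal axis, log2 units), ICSI minus control on the left and label form 2 minus label form 1 on the right, with 95% intervals from limma. Filled points had an adjusted p under 0.05 and grey bands span the middle 50% of all 12000 genes, -0.08 to 0.05 on the left and -0.19 to 0.24 on the right; Zfp57, Ctcfl and Ehmt2 are filled on the right and none is filled on the left.

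Several factors work in pairs, so the ratio of their FPKM within a line was compared between the groups. Ctcfl was at 0.148 ± 0.0759 of the level of Ctcf in control lines and at 0.157 ± 0.0631 in ICSI lines (SD, n = 4 each). The ratio of Ehmt1 to Ehmt2 was 0.193 ± 0.0322 in control and 0.177 ± 0.0303 in ICSI lines. On the FPKM scale Ehmt2 was thus at 4.16 to 6.87 times the level of its partner in every line. The ratio of Zfp57 to Zfp445 was 0.455 ± 0.173 in control and 0.467 ± 0.120 in ICSI lines, and that of Setdb1 to Trim28 was 0.264 ± 0.0399 and 0.264 ± 0.0211. The 4 exact permutation p-values ran from 0.486 to 0.857, and all were 0.857 after adjustment over the 4 ratios. Between label forms the ratio of Ctcfl to Ctcf moved from 0.209 ± 0.0241 in form 1 to 0.0957 ± 0.0265 in form 2 (SD, n = 4 each), with no overlap of the lines. The lines of the forms did not overlap either for Ehmt1 to Ehmt2 (0.163 ± 0.0150 and 0.207 ± 0.0238) or for Setdb1 to Trim28 (0.287 ± 0.0142 and 0.241 ± 0.0204). Such a separation in either direction was found for 26.8% of single genes, and no test was made of these ratios between forms. The ratio of Zfp57 to Zfp445 did not separate by form, being highest in control line 44 at 0.655 and lowest in control line 45 at 0.286, both of form 2.

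**Figure D3:**
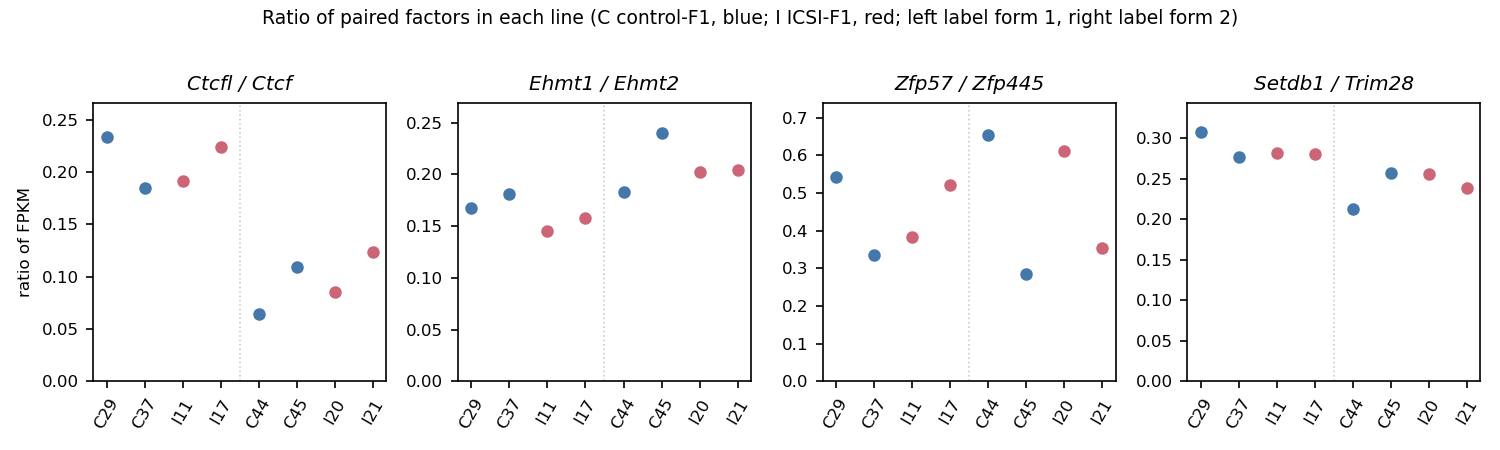
Ratio of FPKM (vertical axis, starting at 0) of 4 pairs of factors in each line (horizontal axis), control-F1 lines in blue and ICSI-F1 lines in red, label form 1 left and label form 2 right of the dotted line. Each point is 1 library; the ratio of Ctcfl to Ctcf is 0.185 to 0.234 in form 1 and 0.0639 to 0.124 in form 2.

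The lines were separated by label form to a larger extent than by group. Zfp57, Ctcfl and Ehmt2 were lower in label form 2, and no factor was higher. With the group as covariate, 3 of 8 factors had an adjusted p under 0.05 in limma, all lower in form 2, while 16.0% of all 12000 genes passed in either direction, 10.2% of the genes being higher and 5.76% lower in form 2. Zfp57 was at 4.90 ± 0.304 FPKM in form 1 and 2.95 ± 0.290 FPKM in form 2 (SD, n = 4 each), a log2 difference of -0.58 (SE 0.10, adjusted p = 0.0144). For Ctcfl the log2 difference was -0.83 (SE 0.21, adjusted p = 0.0350), and the pseudocount of 1 makes this smaller than the plain ratio, which was 0.455 of the mean of form 1. Ehmt2 was at 79.3 ± 7.26 FPKM in form 1 and 60.7 ± 6.08 FPKM in form 2, a log2 difference of -0.38 (SE 0.10, adjusted p = 0.0409).

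Setdb1 and Zfp445 did not pass the threshold with all lines, with log2 differences of -0.32 (adjusted p = 0.0616) and -0.69 (adjusted p = 0.0801), although their 4 lines of form 2 were also below the 4 lines of form 1. This complete separation was found for 5 of the 8 factors, namely Zfp57, Zfp445, Setdb1, Ctcfl and Ehmt2, and for 10.8% of all genes tested. In the other direction it was found for 0 of the 8 factors and 16.0% of all genes, so 26.8% of all genes separated in either direction. Trim28, Ctcf and Ehmt1 differed by -0.07, -0.13 and -0.04, with adjusted p-values of 0.621, 0.673 and 0.848. The median log2 difference of the 8 was -0.35 against 0.03 over all genes, and 8 of 8 were below 0, as were 46.4% of all genes. The interaction of group and label form was past the threshold for 0 of the 8 factors and 0% of all genes in limma, and 0 of the 8 had an unadjusted p under 0.05 for it, against 1.23% of all genes.

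Leaving out single lines changed these calls. The share of all genes called in each fit without a line is not given here. Calls lost among the factors or markers therefore cannot be told apart from calls lost over all genes. Between label forms, 5 of 8 factors and 35.4% of all genes had an unadjusted p under 0.05 with all lines. Without control line 37, ICSI line 11 or ICSI line 17, each left out alone, limma called 0 of the 8 factors between label forms, with 4, 5 and 5 at an unadjusted p under 0.05, respectively. Without control line 29, control line 44 or ICSI line 20, it called only Zfp57, and without control line 45 only Zfp57 and Ctcfl, while without ICSI line 21 it called 4, Zfp445 being added. The differences kept their sign in all 8 of these fits, at -0.62 to -0.53 for Zfp57, -0.99 to -0.65 for Ctcfl and -0.44 to -0.31 for Ehmt2, and the highest adjusted p was 0.0545, 0.0998 and 0.136. With limma-voom, with quantile normalization and with label form as the only term, 4 factors passed, Setdb1 being added each time. Zfp57 passed in 15 of 18 alternatives, Ctcfl in 9 of 18 and Ehmt2 in 9 of 19, since Zfp57 and Ctcfl were not tested at a minimum of 5 FPKM. Germ cell markers moved with the label form as well, in the opposite direction. With all lines, limma called 7 of 8 higher in form 2 at an adjusted p under 0.05, against 10.2% of all genes. The summed level of the 8 markers was 627 to 751 FPKM in form 1 and 912 to 1076 FPKM in form 2. Of these 8 markers, 1 passed without control line 37 or ICSI line 11, 2 without control line 44 or ICSI line 17, 4 without control line 29, control line 45 or ICSI line 20 and 3 with no filter on low values. Depth was also greater in form 2. The part of either in the lower levels of Zfp57, Ctcfl and Ehmt2 was not tested.

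Within label form 2, control line 44 and ICSI line 20 shared low levels of 3 factors. Compared with control line 45, line 44 differed by -0.80 for Zfp445, -0.72 for Ctcf and -0.84 for Ctcfl on the log2(FPKM + 1) scale. ICSI line 20 differed from line 21 by -0.86, -0.65 and -0.72 for the same genes. In plain FPKM, line 44 had 0.529 of the Zfp445, 0.587 of the Ctcf and 0.343 of the Ctcfl level of line 45, and line 20 had 0.502, 0.617 and 0.426 of those of line 21. A difference of at least 0.5 downward in both comparisons was found for 398 of 12000 genes (3.32%), 3 of them among the 8 factors. These comparisons are between single libraries and have no test, and lines 44 and 20 were singled out after their values had been seen.

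Ehmt1 showed a smaller difference in the same direction, -0.32 and -0.33. Trim28 differed by -0.09 and -0.04. Zfp57 was higher in line 44 than in line 45 by 0.20 and differed by -0.15 between lines 20 and 21, so it did not share the pattern of Zfp445. Setdb1 differed by -0.35 between the control lines and by 0.06 between the ICSI lines, and Ehmt2 by 0.04 and -0.34.

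**Figure D4:**
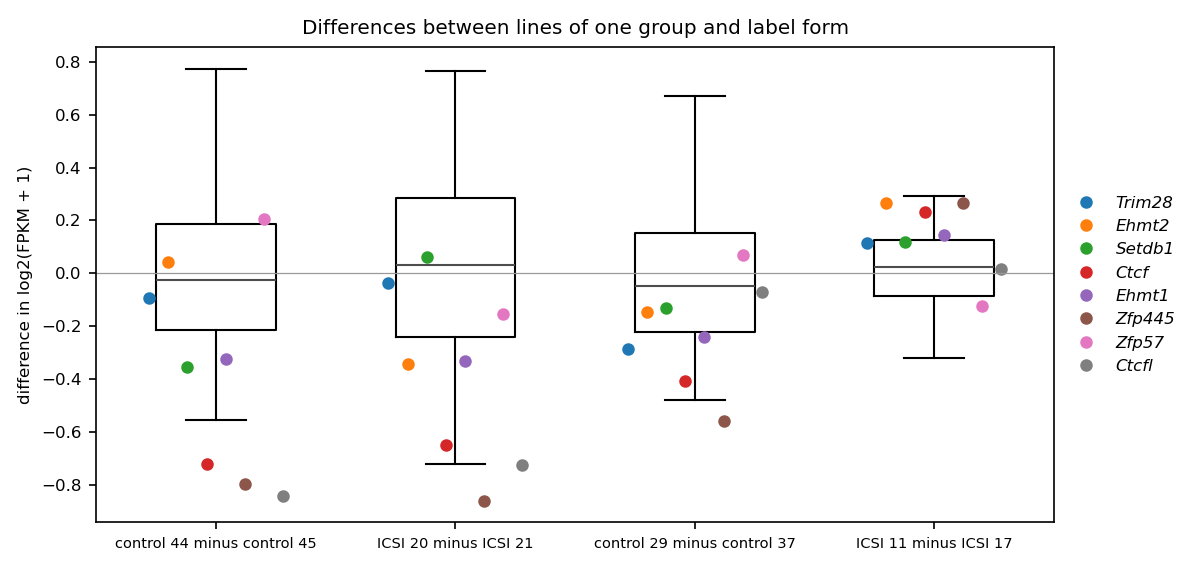
Difference in log2(FPKM + 1) (vertical axis, log2 units) between 2 lines that share group and label form (horizontal axis), for all 12000 genes as boxes with the median, quartiles and whiskers from the 5% to the 95% point, and for the 8 factors as coloured points. Zfp445, Ctcf and Ctcfl lie between -0.84 and -0.72 for line 44 minus line 45 and between -0.86 and -0.65 for line 20 minus line 21.

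Other features of these libraries moved with the same lines. The summed fibroblast markers were at 676 FPKM in line 44 and 176 in line 45, and at 441 in line 20 and 276 in line 21. They were at 793 FPKM in control line 29 and 253 in control line 37, a pair in which Zfp445 differed by -0.56 and Ctcf by -0.41, but Ctcfl by -0.07. The summed FPKM of all genes was highest in lines 44 and 20, at 267636 and 272565 against 240368 to 257184 in the other 6. The 20% of genes with the longest exons differed by a median of -0.09 between lines 44 and 45 and of -0.05 between lines 20 and 21, and the 20% with the shortest exons by 0.04 and 0.13. The exon lengths are 7409 bases for Zfp445, 4860 for Ctcf and 3217 for Ctcfl, and the longest 20% begin at 7.419 kb. The part of these features in the differences was not tested. Without lines 44 and 20, limma called 1 of the 8 factors between label forms, Zfp57, with an adjusted p of 0.037, and the difference of Ctcf turned from -0.13 to 0.21.

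The genes most similar to each factor were found by Pearson's r of log2(FPKM + 1) over the 8 lines after the mean of each label form had been removed, as a description with no test, over 11999 other genes. The 8 points share libraries and their depth. Zfp445 was closest to Polr1a (r = 0.998) and Khsrp (0.998), with 641 genes above 0.9. Ctcf was closest to Togaram1 and Lcorl (0.998 and 0.996), with 647 genes above 0.9, Ctcfl to Rttn and Slc25a42 (0.991 and 0.990) and Ehmt1 to Csnk1g2 and Smg5 (0.9995 and 0.994). Zfp57 had the fewest, 11 genes above 0.9, led by Atp1b1 (0.983) and Col11a1 (0.958). Trim28 was closest to Ap1s3 and Mak16 (0.991 and 0.989), Setdb1 to Cenpt and Gtf3c2 (0.992 and 0.985) and Ehmt2 to AI987944 and Thsd4 (0.977 and 0.974), with 139, 114 and 36 genes above 0.9.

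Among the factors themselves, r was 0.985 between Zfp445 and Ctcf, 0.982 between Zfp445 and Ehmt1, 0.942 between Ctcf and Ehmt1 and 0.903 between Ctcf and Ctcfl, all of which were lower in lines 44 and 20 than in lines 45 and 21. The enzyme partners Ehmt1 and Ehmt2 had r = 0.587, and Setdb1 and Trim28 had r = 0.641. Zfp57 and Zfp445 had r = -0.19, although both encode proteins that bind control regions.

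Other genes of these pathways were grouped into lists by role. In ICSI minus control, 0 genes of any list passed at an adjusted p under 0.05 in limma, and 0 had an unadjusted p under 0.05. With label form as covariate, 0 passed in limma and 1 gene, a partner of TRIM28 or SETDB1, had an unadjusted p under 0.05. The largest median among the lists was that of the fibroblast markers, -0.26, with 12 of 12 below 0. It rested on single control lines: without line 29 the median was 0.08 with 2 of 12 below 0, without line 44 it was -0.02 with 7 of 12 below 0, and without line 45 it was -0.65. The summed level of these markers ranged from 176 to 793 FPKM in control and from 255 to 441 FPKM in ICSI lines. In label form 2 minus form 1 the background was the 16.0% of genes given above.

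Of 16 partners of TRIM28 and SETDB1 that were tested, 4 were higher and 1 was lower in label form 2. Without control line 37, ICSI line 11 or ICSI line 17, each left out alone, 1 was higher and 0 were lower. Without ICSI line 21, 5 were higher and 1 was lower. Mphosph8, a subunit of the HUSH complex that spreads H3K9 trimethylation, was at 74.9 ± 6.48 FPKM in form 1 and 114 ± 6.17 FPKM in form 2 (SD, n = 4 each), a log2 difference of 0.60 (adjusted p = 0.00998). Pphln1, another HUSH subunit, differed by 0.65 (adjusted p = 0.0291), Hdac2, a histone deacetylase, by 0.45 (0.0164) and Morc3, a chromatin ATPase, by 0.43 (0.0316). Chd4, the most abundant of the list at 150 FPKM, did not pass (0.32, adjusted p = 0.194), nor did Hdac1 or the HP1 genes Cbx1, Cbx3 and Cbx5. The median of the list was 0.09, against -0.35 for the 8 factors.

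Of 9 other H3K9 methyltransferases and partners of EHMT1 and EHMT2, 2 were higher and 0 lower. Without ICSI line 11, 0 were higher, and without ICSI line 21, 2 were higher, with 0 lower each time. Suv39h2, an enzyme for H3K9 trimethylation of heterochromatin that is expressed in testis, was at 19.1 ± 1.80 FPKM in form 1 and 24.5 ± 1.46 FPKM in form 2 (log2 difference 0.35, adjusted p = 0.0312), and Cdyl, a chromodomain protein that binds EHMT2, was at 12.2 ± 0.917 and 17.7 ± 1.14 FPKM (0.51, adjusted p = 0.0135). Suv39h1 was at 31.3 ± 1.67 and 32.5 ± 1.62 FPKM and Wiz, the zinc finger partner of the EHMT pair, differed by -0.25 (adjusted p = 0.128). Of 10 H3K9 demethylases, 0 passed in limma and 1 had an unadjusted p under 0.05, against 35.4% of all genes. Kdm1a was the most abundant at 35.5 ± 1.61 FPKM in form 1 and 41.7 ± 4.47 FPKM in form 2, followed by Kdm3a at 28.3 ± 2.56 and 35.5 ± 7.06 FPKM.

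Of 14 genes of cohesin, the ring complex that CTCF halts on DNA, and of its loaders and releasers, 4 were higher and 0 lower. They were Rad21 (134.6 ± 9.84 FPKM in form 1 and 178 ± 9.68 in form 2, log2 difference 0.40, adjusted p = 0.0234), Stag2 (0.50, adjusted p = 0.0172) and the meiotic subunits Smc1b (61.8 ± 8.97 and 101 ± 5.98 FPKM, 0.71, adjusted p = 0.00828) and Rad21l (15.0 ± 1.96 and 30.2 ± 3.31 FPKM, 0.97, adjusted p = 0.00792). Stag3, another meiotic subunit, differed by -0.41 (adjusted p = 0.105). Without control line 37, ICSI line 11 or ICSI line 17, each left out alone, 2 of the 14 were higher and 0 lower. Without ICSI line 21, 7 were higher and 2 lower. Of 7 markers of differentiation and meiosis, Sycp3 (0.64, adjusted p = 0.0173) and Sycp1 (0.55, adjusted p = 0.0263) were also higher and Kit (-0.80, adjusted p = 0.0351) was lower, while 0 of the 7 passed without control line 44 or ICSI line 11. Of the 3 Sertoli and Leydig cell markers tested, Sox9 was higher (1.03, adjusted p = 0.0242) and Wt1 lower (-0.82, adjusted p = 0.0150). Of the 12 fibroblast markers 0 passed in limma, with 1 at an unadjusted p under 0.05, against 35.4% of all genes. Among 11 other factors of imprint protection and KRAB zinc finger silencing, Yy1 was higher (0.49, adjusted p = 0.0190). Zfp568, a KRAB zinc finger gene, was lower (-0.41, adjusted p = 0.0282). Without control line 37 or ICSI line 11, each left out alone, 0 of these 11 passed. Without ICSI line 21, 3 were higher and 2 lower. Dppa3, which guards maternal methylation after fertilization, was at 2.29 ± 0.537 FPKM in form 1 and 0.726 ± 0.383 FPKM in form 2, and since it reached the minimum of 1 FPKM only through form 1, no test is given. Uhrf1, which brings the maintenance methyltransferase to hemimethylated DNA, was at 98.8 ± 14.5 and 128 ± 7.70 FPKM and did not pass (adjusted p = 0.0626).

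**Figure D5:**
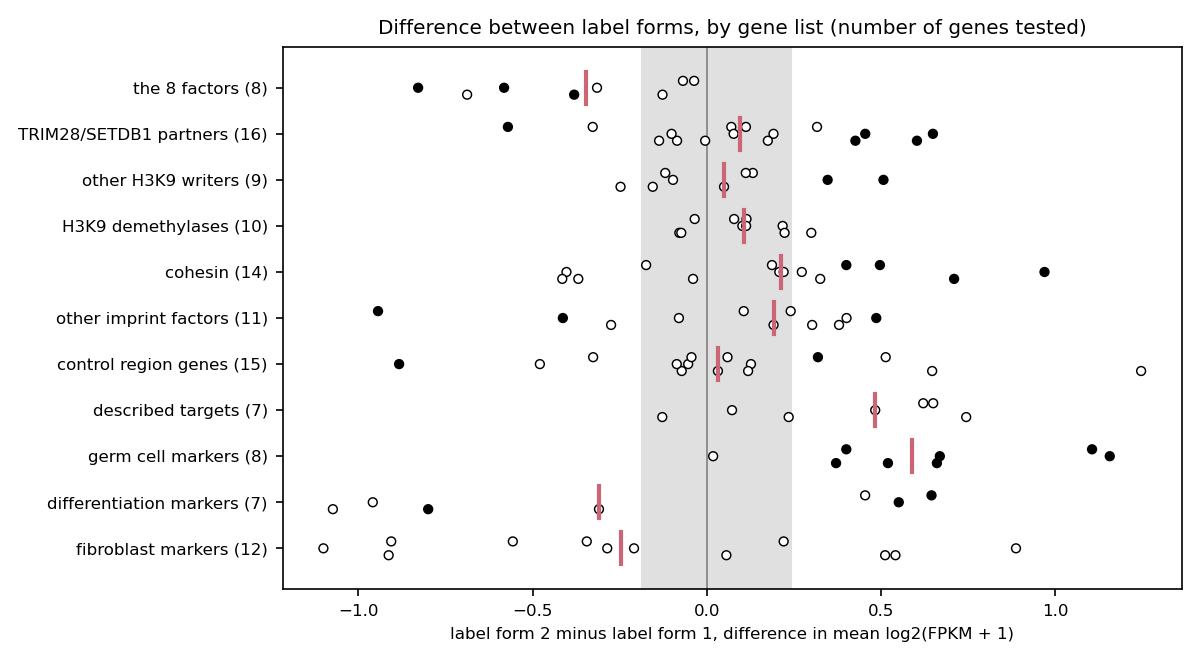
Difference in mean log2(FPKM + 1) between label form 2 and form 1 (horizontal axis, log2 units) for each tested gene of the lists (rows, with the number tested). Filled points had an adjusted p under 0.05, red bars are list medians and the grey band spans the middle 50% of all genes, -0.19 to 0.24; the 8 factors have a median of -0.35 and the germ cell markers one of 0.59.

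Genes at the control regions that ZFP57 or CTCF bind were examined next. Of 15 tested, 1 was higher in label form 2 and 1, Meg3, was listed as lower, although it reached the minimum of 1 FPKM only through form 1. Igf2r was at 29.6 ± 2.82 FPKM in form 1 and 37.1 ± 1.75 FPKM in form 2 (log2 difference 0.32, adjusted p = 0.0419). This call was not stable. Without control line 37, 44 or 45 or ICSI line 11, 17 or 20, each left out alone, 0 genes of the list were higher. The same held with no filter, with TPM, with quantile normalization, with limma-voom and without the trend. Meg3, a noncoding RNA expressed from the maternal copy in somatic cells, was at 3.08 FPKM in control line 29, at 1.13 to 1.32 FPKM in the other lines of form 1 and at 0.232 to 0.715 FPKM in form 2. Control line 29 also had the highest summed fibroblast markers (793 FPKM). Without it, Meg3 fell below the minimum and 0 of 14 genes were lower. H19, the noncoding RNA next to the CTCF insulator, was the most abundant, at 90.0 ± 45.9 FPKM in form 1 and 201 ± 62.6 FPKM in form 2 (1.25, adjusted p = 0.0612). Mest and Plagl1, whose upstream windows hold the ZFP57 hexamer, ranged from 8.65 to 24.3 FPKM and from 1.49 to 4.45 FPKM, with differences of 0.51 (adjusted p = 0.142) and -0.33 (adjusted p = 0.302). In ICSI minus control 11 of the 15 were below 0 and 4 above, with a median of -0.06.

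Of the genes described as targets of CTCFL in testis or of EHMT2 in embryonic stem cells, 7 were tested, all of the Magea family. Between label forms 0 passed in limma, with 3 at an unadjusted p under 0.05, against 35.4% of all genes. Magea8 was at 22.3 ± 3.42 FPKM in form 1 and 37.1 ± 14.3 FPKM in form 2, and Magea5 at 13.6 ± 1.53 and 20.2 ± 7.11 FPKM. Some Magea genes are close copies of one another, so the assignment of reads to single genes of the family is uncertain. Prss50 (also called Tsp50) and Gal3st1, described as CTCFL targets, were below the minimum for a test. Both were at their lowest in control line 44 and ICSI line 20, as was Ctcfl, which was noticed after their values had been seen. Prss50 was at 0.273 and 0.310 FPKM in these lines and at 0.731 to 1.88 FPKM in the other 6, and Gal3st1 at 0.120 and 0.127 FPKM against 0.185 to 0.504 FPKM. From 8 to 29 reads lay behind each Gal3st1 value and from 13 to 77 behind each Prss50 value. Magea8 and Magea5, the most abundant of the list, went the other way. They were at 57.2 and 29.5 FPKM in ICSI line 20 and at 36.7 and 20.1 FPKM in control line 44. In the other lines they were at 18.2 to 30.2 and 11.5 to 19.1 FPKM. Magea4 was lowest in control line 44 (1.48 FPKM) but not in ICSI line 20 (2.66 FPKM).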

How the data were processed

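RNA-seq of 8 GS cell lines (4 control-F1, 4 ICSI-F1) was analysed from 1 table. The authors trimmed single reads with cutadapt, mapped them to mm10 with STAR and counted them with htseq-count, and they deposited FPKM values already scaled between libraries. The library kit is named differently in the labels and in the methods, so strandedness is uncertain. The table's log2 fold changes and p-values, which the authors deposited from their own DESeq2 comparison, were not used.

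Groups came from the sample titles. limma 3.58.1 in R 4.3.3 (with a trend) was applied to log2(FPKM + 1) over the 12000 genes whose mean reached 1 FPKM. Tests were two-sided at an adjusted p of 0.05 (Benjamini-Hochberg). Group was the only term for ICSI minus control and a covariate for label form. The fits were tested on simulated data. Single values were compared by exact two-sided permutation (70 assignments, smallest p 0.0286). FPKM steps gave whole reads, within 0.02, for 12000 of 12000 tested genes (100.0%). limma-voom on these reads was an alternative, as were other pseudocounts, filters and scalings. Intervals at 95% cover counting error only where they are Poisson intervals.

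The 8 factors and the gene lists were chosen with earlier results of these data known. Named genes were the 8 factors, up to 4 genes per list (highest mean FPKM, smallest p for label form) and the 2 nearest genes per factor. Where at most 5 genes of a list passed, all were named, except 1 gene that is not reported here. Hdac1, the HP1 genes, Wiz, Mest, Plagl1, Prss50 and Gal3st1 were added after their values had been seen. Positions are from GENCODE M21 on GRCm38, and upstream sequences from RefSeq on GRCm38.p6.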

Additional observations from a re-analysis of the deposited data

How the results depend on the processing

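No paired analysis was possible because the control and ICSI lines share no replicate numbers. In ICSI minus control, 0 of 8 factors passed under all 19 alternatives. Signs of these small differences turned: Zfp57 to 0.0235 with limma-voom and to 0.0166 without control line 44 and ICSI line 20, and Trim28 to 0.0126 with quantile normalization. Leaving out 1 line at a time gave -0.16 to 0.0949 for Zfp57, -0.36 to 0.15 for Zfp445, -0.0939 to 0.000764 for Trim28, -0.17 to 0.0397 for Setdb1, -0.17 to 0.10 for Ctcf, -0.23 to 0.31 for Ctcfl and -0.0776 to 0.16 for Ehmt2. The log2 ratios of pairs then ranged from -0.20 to 0.43 for Ctcfl to Ctcf, from -0.11 to 0.29 for Zfp57 to Zfp445 and from -0.0857 to 0.0917 for Setdb1 to Trim28. Between label forms, the count of 3 factors became 1 with no filter, 1 with a minimum of 5 FPKM (6 factors tested), 1 without lines 44 and 20, 2 with TPM and without the trend, 4 with limma-voom, quantile normalization and label form as the only term, and 0 to 4 when 1 line was left out. Ctcf ranged from -0.27 to 0.0129 and Ehmt1 from -0.11 to 0.0383 without 1 line, and without lines 44 and 20 they were 0.21 and 0.13. Genes of the partner lists past the threshold numbered 3 to 29 without 1 line and 7 without lines 44 and 20. The alternative without both of these lines was chosen after seeing the data, and the cause of these changes was not tested beyond the smaller number of lines. The interaction was not refitted without single lines. In genes below about 1 FPKM, such as Gal3st1, few reads limit what could be detected.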
